A study of Homo sapiens with 4 samples.

Results

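The genes that load, unwind and copy DNA during S phase were examined in IMR-32 cells, a line established from a human neuroblastoma that carries MYCN amplification. A list of 53 genes, chosen by role, was followed, from origin licensing through the replicative helicase, the DNA polymerases and the clamp loader to fork protection and chromatin assembly. It was read in the deposited RNAseq counts by matching each Ensembl gene ID to its symbol. All 53 genes were found in the table of 60612 gene IDs, and all 53 passed the filter on low counts among the 17537 genes tested. 2 libraries carried the control hairpin (shControl) and 2 carried a hairpin against NeuroD1 (shNeuroD1). Hairpins were stably transduced, and every library, controls included, came from cells exposed to 1 µg/mL doxycycline over 48 h to induce RNA interference. The labels mark the control cells as wild type and the series text names them parental. In the study's own column names both knockdown libraries carry the hairpin shND1-2, so a single hairpin was compared. Whether the libraries of a group came from separate cultures is not stated, and p-values then measure only the spread between these libraries.

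The libraries held 14665210 to 16482463 counts. NEUROD1, the targeted gene, fell to 14.6% of the control level (log2 fold change -2.77, SE 0.0504, edgeR adjusted p 8.6e-29). The labelled cell type was checked against its markers. Of the adrenergic neuroblastoma genes, HAND2 had 791 and 784 CPM in shControl and 725 and 710.0 CPM in shNeuroD1 (CPM are counts scaled to a common library size with TMM), and GATA3 had 143 and 148 CPM in shControl and 219 and 214 CPM in shNeuroD1. DBH and TH lay under 6 CPM in every library. These markers moved in both directions. TH rose from a mean of 0.969 to 5.49 CPM (log2 fold change 2.48, edgeR adjusted p 8.3e-09), and CHGA (0.75) and CHGB (0.72) also rose. DBH (-1.01) and ISL1 (-0.63) fell, and PHOX2A (-0.01) did not pass. CD3E had no count in any library, and leukocyte, Schwann cell and fibroblast markers summed to at most 1.89, 9.57 and 38.4 CPM in any library. Within these lists the Schwann cell sum was higher in shNeuroD1 (8.396 and 9.57 against 5.15 and 5.03 CPM) and the fibroblast sum, mostly COL1A1, was lower, while COL3A1 (0.06297 to 1.08 CPM, edgeR adjusted p 6.3e-05) and LUM (0.7898 to 2.43 CPM, edgeR adjusted p 4.1e-04) rose. The part of these differences in the results below was not tested.

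Replication is licensed in G1, when the origin recognition complex (ORC), CDC6 and CDT1 load the MCM2-7 ring onto DNA as an inactive helicase. In S phase the kinase CDC7 with DBF4, and a set of firing factors, recruit CDC45 and the GINS complex, which turn the ring into the active CMG helicase. Polymerase alpha with primase lays down primers, polymerases epsilon and delta extend the leading and lagging strands, and the clamp loader RFC places the PCNA clamp that holds them on DNA. Many of these genes are transcribed under E2F factors as cells leave G1, and their expression is a common readout of proliferation in tumour cells.

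Expression of nearly the whole replication apparatus was lower after NeuroD1 knockdown. Of the 53 genes, 50 fell, 0 rose and 3 did not pass (ORC4, ORC5 and POLD2) at an edgeR adjusted p under 0.05 over all genes tested, where 28.2% of all genes were lower and 26.8% were higher. 27 of the 53 also had a log2 fold change under -1, against 5.14% of all genes. The median log2 fold change of the 53 was -1.01, beside 0.01 for all genes tested, and the values ran from -1.83 for CDC6 to 0.06 for ORC5. In 52 of the 53 genes the groups did not overlap, with ORC4 as the exception, and in 50 of these the shNeuroD1 libraries were the lower ones, as they were without overlap in 37.7% of all genes. Together the 53 genes took 0.591% and 0.585% of all counts in shControl and 0.330% in each shNeuroD1 library. In bulk RNA, fewer cells in S phase and less of each transcript per cell cannot be told apart.

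**Figure D1:**
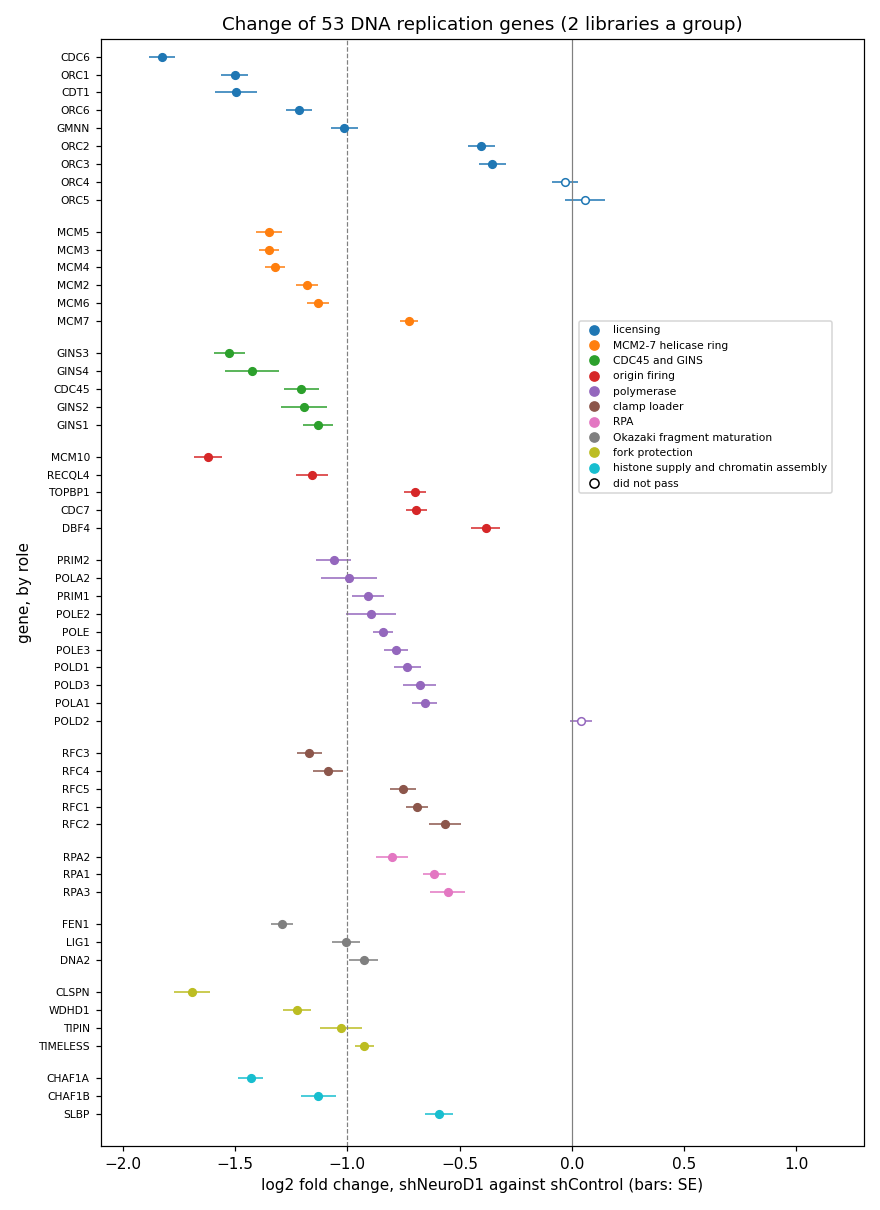
Log2 fold change of each of the 53 genes (shNeuroD1 against shControl, 2 libraries each; bars are SE), grouped by role; filled points passed an edgeR adjusted p of 0.05 and open points did not, and the dashed line marks -1. CDC6 lies farthest left at -1.83, the CDC45 and GINS genes all lie left of -1, and ORC4, ORC5 and POLD2 sit near 0.

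**Figure D2:**
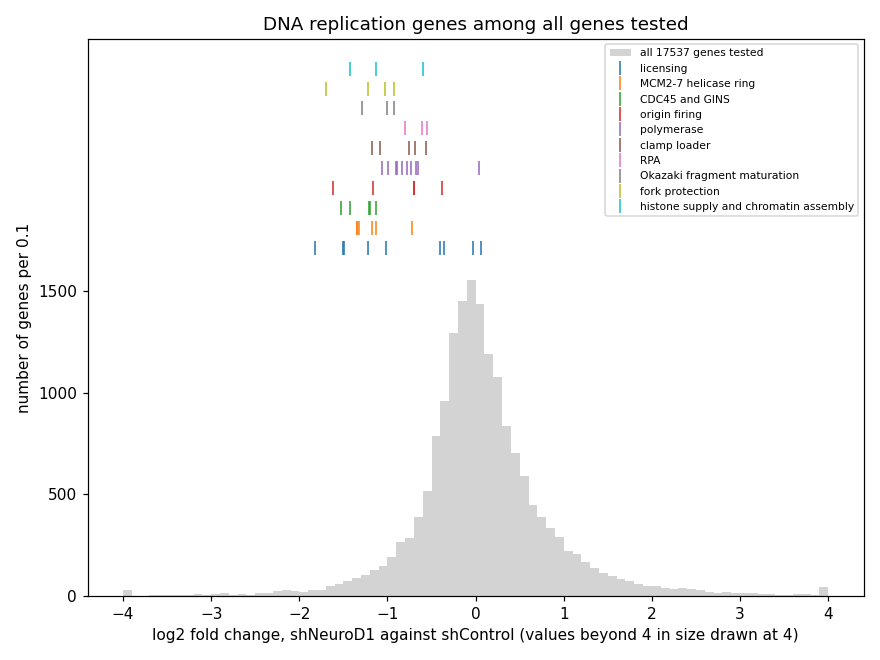
Histogram of the log2 fold changes of all 17537 genes tested (grey, in steps of 0.1) with 1 tick for each replication gene above it, in a row per role; values beyond 4 in size are drawn at 4. All ticks but those of ORC4, ORC5 and POLD2 stand left of the peak of the grey distribution, whose median is 0.01.

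The fall was unequal between roles, and the medians are given as a description with no test. It was deepest for the MCM2-7 ring (median -1.25) and for CDC45 with GINS (-1.21), in which 5 of 6 and 5 of 5 genes were past a log2 fold change of -1. The genes of fork protection (-1.13), of histone supply and chromatin assembly (-1.13), of licensing (-1.01) and of Okazaki fragment maturation (-1.01) lay between. The polymerase (-0.81), clamp loader (-0.75), origin firing (-0.70) and RPA (-0.61) genes fell less, with 1 of 10, 2 of 5, 2 of 5 and 0 of 3 past -1. The ranges of the CDC45 and GINS genes (-1.53 to -1.13) and of the polymerase genes (-1.06 to 0.04) did not overlap. The gap between them was narrow, from GINS1 (-1.13, SE 0.0662) to PRIM2 (-1.06, SE 0.0785). Without shNeuroD1 replicate 2 the ranges overlapped, with GINS1 at -1.115 and PRIM2 at -1.127. Licensing was the widest group, from -1.83 to 0.06. The order of the role medians was not kept in fits on the authors' FPKM tables, which hold 45 of the 53 genes and are described below.

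The promoters of these genes were compared for shared letters. The genes were listed by role, and a link between promoter letters and the fall was not tested. RefSeq promoters (250 bases before to 50 after each transcript start, GRCh38.p14) were at hand for 45 of the 53 genes and not for MCM4, MCM5, GINS4, RECQL4, POLD3, RPA2, RPA3 and DNA2. The letters searched on both strands for E2F were TTTCCCGC, TTTGGCGC, TTTGCCGC and TTTCGCGC, which can overlap each other on opposite strands. They occurred in 21 of the 45 genes (46.7%), against 6.37% of 11812 tested genes with a promoter and 3.31% of all 35116 promoters. They were also in 6 of the 22 genes with a promoter from the second list of replication genes described below. The windows below show 1 match for each of 8 genes whose falls are described below, from the loader, the ring, GINS and the fork, read along the transcript with the matched letters in capitals.
CDC6: ggccattcggaTTTGGCGCgagcgcggctg
CDT1: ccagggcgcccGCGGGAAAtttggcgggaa
MCM2: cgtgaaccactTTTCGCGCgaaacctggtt
MCM3: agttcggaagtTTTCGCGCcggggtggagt
MCM6: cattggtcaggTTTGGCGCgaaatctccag
MCM7: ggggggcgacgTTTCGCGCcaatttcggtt
GINS3: cgtccccgggcGCGGGAAAcgagtttcaat
CLSPN: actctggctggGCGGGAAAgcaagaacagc
The MCM2 and MCM6 windows hold a second match that overlaps the one shown on the opposite strand. In CDC6 the match began 7 bases after the start and the window lies at chr17:40287875-40287904 on the plus strand. The others lie at chr16:88803743-88803772 on the plus strand (CDT1), chr3:127598402-127598431 on the plus strand (MCM2), chr6:52284728-52284757 on the minus strand (MCM3), chr2:135876515-135876544 on the minus strand (MCM6), chr7:100101388-100101417 on the minus strand (MCM7), chr16:58392455-58392484 on the plus strand (GINS3) and chr1:35769965-35769994 on the minus strand (CLSPN). All 4 MCM2-7 genes with a promoter in the table held a match, as did 3 of the 4 CDC45 and GINS genes, 4 of 9 licensing genes, 4 of 9 polymerase genes, 2 of 4 fork protection genes, 2 of 4 origin firing genes, 1 of 2 Okazaki fragment genes and 1 of 5 clamp loader genes. None was found in the 3 genes of histone supply and chromatin assembly or in RPA1, the RPA gene with a promoter in the table.

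**Figure D3:**
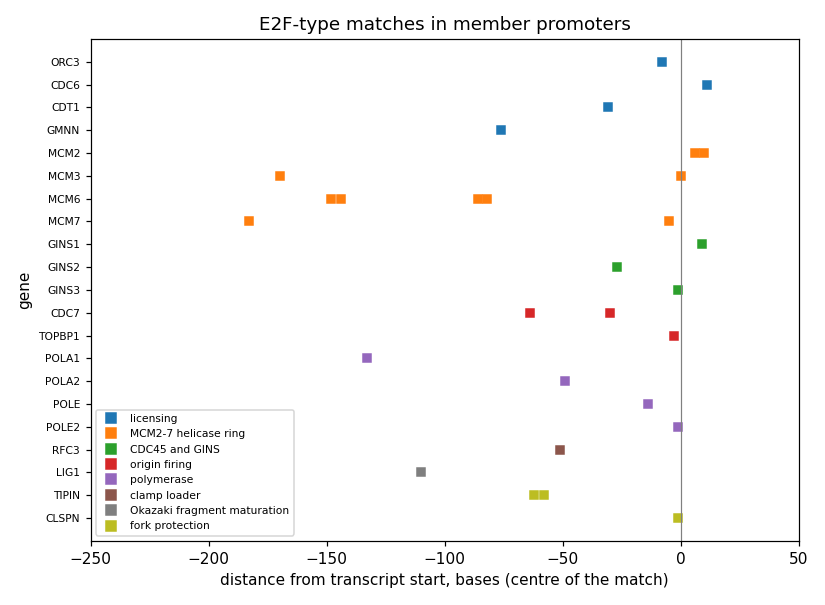
Position of each E2F-type match (squares, centre of the match, coloured by role) relative to the transcript start in the 21 replication genes that hold one; the x axis is in bases and 0 is the start. Of 29 matches, 23 begin within 100 bases before to 50 after the start.

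The median log2 fold change was -1.03 for the 21 genes with these letters and -0.85 for the 24 without, as a description. Of the 21, 13 fell past -1. Of the 24, 10 did so, namely ORC1, ORC6, CDC45, MCM10, PRIM2, RFC4, FEN1, WDHD1, CHAF1A and CHAF1B. ORC3, which fell little, held a match. The genes that did not pass, ORC4, ORC5 and POLD2, held none. The CCAAT box (CCAAT) was found in 53.3% of the 45 genes and 42.7% of the tested genes, the E-box CACGTG bound by MYC proteins in 20% and 12.4%, and the E-boxes CAGATG and CAGCTG, of the kind bound by NeuroD1 and related factors, in 17.8% and 24.4% against 13.9% and 22.7%. The CHR letters TTTGAA of G2/M promoters were in 4.44% of the replication genes and 13.7% of the tested genes. Of the 22 genes with a promoter from the second list, 16 held CCAAT, 3 CACGTG, 1 CAGATG, 3 CAGCTG and 3 the CHR letters. Each of these shares and counts covers both strands.

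Origin recognition was split. ORC1, the ATPase subunit whose abundance is tied to the cell cycle in human cells, had 103 and 104 CPM in shControl and 35.6 and 37.6 CPM in shNeuroD1, or 35.3% of control (log2 fold change -1.503, SE 0.0609, edgeR adjusted p 7.1e-20). ORC6, the smallest subunit, had 122 and 117 CPM in shControl and 51.3 and 51.6 CPM in shNeuroD1 (log2 fold change -1.22, SE 0.0564, edgeR adjusted p 2.5e-18). The highest shNeuroD1 library lay 63.6% below the lowest shControl library for ORC1 and 55.8% below it for ORC6. ORC2, a core subunit, had 70.6 and 66.8 CPM in shControl and 51.7 and 52.2 CPM in shNeuroD1 (log2 fold change -0.40, SE 0.0615, edgeR adjusted p 1.4e-06), and ORC3, its direct partner, had 70.2 and 71.5 CPM in shControl and 55.2 and 55.7 CPM in shNeuroD1 (log2 fold change -0.35, SE 0.0597, edgeR adjusted p 6.8e-06). These core subunits fell to 75.6% and 78.2% of control, with no overlap. ORC4 had 67.3 and 64.9 CPM in shControl and 65.6 and 63.8 CPM in shNeuroD1, with overlapping groups (log2 fold change -0.03, SE 0.0593, edgeR adjusted p 0.684). ORC5 had 24.4 and 24.6 CPM in shControl and 24.98 and 26.01 CPM in shNeuroD1 (log2 fold change 0.06, SE 0.0885, edgeR adjusted p 0.595). Both differences were smaller than their SE. Within a library, the ratio of ORC1 to ORC4 CPM stood at 1.53 and 1.601 in shControl and 0.542 and 0.589 in shNeuroD1. This ratio was chosen after the values were seen.

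Of the loading factors, CDC6 and CDT1 fell more than geminin. CDC6 (ENSG00000094804, GRCh38 chromosome 17, 40287633 to 40304657, plus strand), the ATPase that completes the loader on ORC, had 122 and 122 CPM in shControl and 34.1 and 34.8 CPM in shNeuroD1, or 28.2% of control (log2 fold change -1.83, SE 0.0594, edgeR adjusted p 2.4e-22). It was the largest fall of the 53, and the libraries of a group differed by under 1 CPM. CDT1, which delivers the MCM2-7 ring, was at 35.5% of control (log2 fold change -1.49, SE 0.0932, edgeR adjusted p 5.0e-15), and GMNN (geminin), the protein that inhibits CDT1 after licensing, was at 49.5% (log2 fold change -1.01, SE 0.0603, edgeR adjusted p 1.4e-15). The ratio of CDT1 to GMNN CPM, also chosen after the values were seen, stood at 0.307 and 0.356 in shControl and 0.2297 and 0.243 in shNeuroD1, lower in the knockdown without overlap. The activator and its inhibitor both fell, CDT1 by the larger factor.

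All 6 genes of the MCM2-7 ring fell. MCM3 had 484 and 459.7 CPM in shControl and 191 and 179 CPM in shNeuroD1 (log2 fold change -1.35, SE 0.0450, edgeR adjusted p 5.0e-22). MCM5 had 144 and 151 CPM in shControl and 61.1 and 54.8 CPM in shNeuroD1 (log2 fold change -1.35, SE 0.0568, edgeR adjusted p 2.0e-19), and MCM4 had 318 and 320.1 CPM in shControl and 126 and 129 CPM in shNeuroD1 (log2 fold change -1.32, SE 0.0448, edgeR adjusted p 7.2e-22). These subunits lost the most, to between 39.3% and 39.9% of control, and their log2 fold changes lay within 1 SE of each other. MCM2, the subunit that also binds histones at the fork, had 177 and 176 CPM in shControl and 77.4 and 78.6 CPM in shNeuroD1 (log2 fold change -1.18, SE 0.0496, edgeR adjusted p 2.0e-19). MCM6 had 201 and 199.7 CPM in shControl and 91.04 and 91.6 CPM in shNeuroD1 (log2 fold change -1.13, SE 0.0478, edgeR adjusted p 2.2e-19). Both fell somewhat less, again without overlap. MCM7 had 412 and 407 CPM in shControl and 248 and 247 CPM in shNeuroD1, or 60.5% of control (log2 fold change -0.72, SE 0.0416, edgeR adjusted p 5.9e-16). It was the only subunit that stayed above a log2 fold change of -1, though all 6 form a ring with a copy of each. The ratio of MCM7 to MCM3 CPM, chosen after the values were seen, stood at 0.851 and 0.885 in shControl and 1.296 and 1.38 in shNeuroD1. An annotated antisense gene shares 22.7% of the exon bases of MCM2, and AP4M1, on the opposite strand, shares 8.94% of those of MCM7. Use of strand in counting was not stated. In the authors' FPKM tables, described below, MCM7 had 113 and 70.5 FPKM in shControl and 68.5 and 68.6 FPKM in shNeuroD1.

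Levels of different subunits were compared only per length, as CPM per kilobase of annotated exon (GENCODE 29, union of all isoforms). In the ring, MCM3 was highest in shControl, with 133 and 126 in shControl and 52.5 and 49.1 in shNeuroD1. MCM7 followed, with 93.96 and 92.7 in shControl and 56.6 and 56.4 in shNeuroD1. MCM6 (48.7 and 48.5 in shControl) and MCM4 (45.7 and 45.9) were the closest neighbours, above MCM2 (36.1 and 35.996) and MCM5 (19.6 and 20.6). In the knockdown MCM7 was the highest of the ring. In ORC the order in shControl was ORC1, ORC6, ORC3, ORC2, ORC4 and ORC5, and in shNeuroD1 the values of ORC1 (11.3 and 11.9) and ORC6 (11.9 and 11.96) lay below those of ORC3 (14.95 and 15.1). These orders rest on the annotated lengths, which count rare isoforms. Across the 53 genes the log2 fold change and the level per length in shControl were nearly unrelated (Pearson r -0.10 and Spearman rho -0.08, as a description over genes that share the same libraries).

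**Figure D4:**
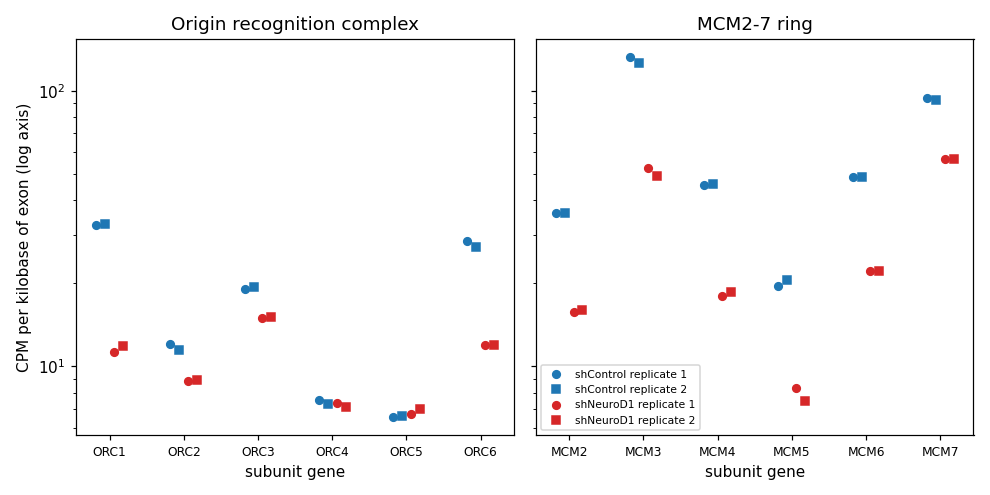
Level per length (CPM per kilobase of exon, log axis) of the ORC and MCM2-7 subunit genes in each of the 4 libraries (blue shControl, red shNeuroD1; circle replicate 1, square replicate 2). ORC1 and ORC6 drop below ORC3 in shNeuroD1 while ORC4 and ORC5 show no separation like it, and every MCM2-7 gene is lower, MCM7 least.

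The partners that activate the ring fell as a block. GINS3 (chromosome 16, 58295080 to 58406144, plus strand), a subunit of the GINS tetramer, had 87.5 and 83.8 CPM in shControl and 27.7 and 31.7 CPM in shNeuroD1 (log2 fold change -1.53, SE 0.0688, edgeR adjusted p 1.2e-18). GINS4 was at 37.3% of control (-1.43 on the log2 scale, SE 0.119), CDC45 at 43.4% (-1.21, SE 0.0768), GINS2 at 43.7% (-1.19, SE 0.103) and GINS1 at 45.7% (-1.13, SE 0.0662). All 5 passed, with the highest edgeR adjusted p, 1.4e-11, in GINS2. Antisense genes share 21.2% of the exon bases of GINS4 and 10.9% of those of GINS3.

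Among the firing factors, MCM10 and RECQL4 fell more than TOPBP1, CDC7 and DBF4. MCM10 (chromosome 10, 13161554 to 13211104, plus strand), which is needed for the helicase to open DNA, had 111 and 111 CPM in shControl and 33.9 and 38.3 CPM in shNeuroD1, or 32.5% of control (log2 fold change -1.62, SE 0.0627, edgeR adjusted p 2.1e-20). RECQL4, a helicase family protein with a role in initiation, was at 44.7% (-1.16 on the log2 scale, edgeR adjusted p 3.7e-15). TOPBP1, a scaffold for GINS loading that also activates ATR, was at 61.7% (-0.70). CDC7, the kinase subunit, was at 61.8% (-0.69), and DBF4, its activating subunit, was at 76.6% (-0.38, edgeR adjusted p 8.8e-06), the highest adjusted p of the 50 genes that fell. DBF4, POLD2, RFC3, RFC5 and FEN1 each have 1 annotated pseudogene of their name and RPA2 has 3, and how reads were divided between these copies is not stated.

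All polymerase genes but POLD2 fell, most of them less than the helicase genes. PRIM2, the large primase subunit, had 48.03 and 48.2 CPM in shControl and 22.02 and 24.1 CPM in shNeuroD1 (log2 fold change -1.06, SE 0.0785, edgeR adjusted p 3.5e-13) and was the one polymerase gene past -1. In the polymerase alpha and primase complex, POLA2 (-0.99), PRIM1 (-0.91) and POLA1 (-0.66) were also lower on the log2 scale. The catalytic subunit of polymerase epsilon, POLE, was at 55.9% of control (-0.84, SE 0.0445), and POLE2 (-0.90) and POLE3 (-0.78), a histone-fold subunit, lay close to it, so that the 3 subunits spanned 0.114 on the log2 scale. In polymerase delta, POLD1, the catalytic subunit, was at 60.1% (-0.73) and POLD3 at 62.5% (-0.68). POLD2, the subunit that joins them and is also part of polymerase zeta, had 127 and 123 CPM in shControl and 129 and 128 CPM in shNeuroD1 (log2 fold change 0.04, SE 0.0487, edgeR adjusted p 0.485). Its groups did not overlap, but its mean was 103% of control and the difference did not pass. POLA2 shares 35.1% of its exon bases with another annotated protein-coding gene on the same strand, and it had the widest SE of the 53 (0.126).

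**Figure D5:**
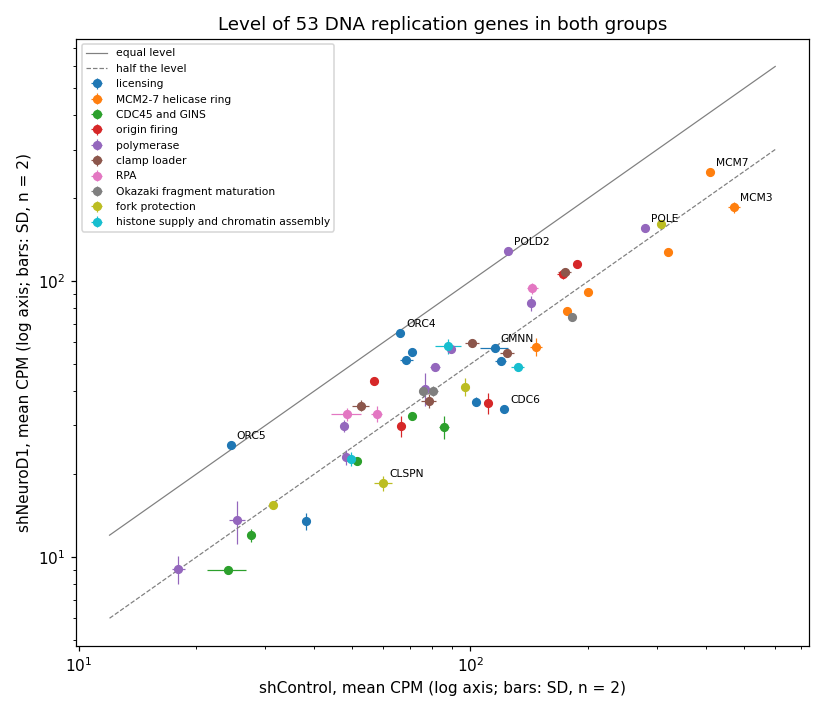
Mean CPM of the 53 genes in shControl (x) and shNeuroD1 (y), both on log axes with bars for the SD of 2 libraries, coloured by role; the solid line marks equal levels and the dashed line 50% of control. POLD2, ORC4 and ORC5 lie close to the solid line, CDC6 and CLSPN lie well under the dashed line, and MCM7 and POLE lie above it.

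The clamp loader and the single-strand binding protein RPA fell less than the helicase genes. RFC3, a small clamp loader subunit, had 128 and 120.3 CPM in shControl and 53.97 and 56.1 CPM in shNeuroD1 (log2 fold change -1.17, SE 0.0563, edgeR adjusted p 6.3e-18), and RFC4 was at 47.1% (-1.09). RFC5 (-0.75), RFC1, the large subunit that is not shared with the alternative loaders (-0.69), and RFC2 (-0.57) fell less on the log2 scale. RPA2, the middle subunit of RPA, had 59.03 and 56.4 CPM in shControl and 34.7 and 31.5 CPM in shNeuroD1 (log2 fold change -0.80, SE 0.0713, edgeR adjusted p 2.6e-11). RPA1, the large subunit, was at 65.4% (-0.61) and RPA3, the small one, at 68.1% (-0.55). RPA was the one role in which no gene was past -1.

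Okazaki fragment maturation had the same median as the 53 genes because LIG1 is the middle gene of both. FEN1 (chromosome 11, 61792637 to 61797244, plus strand), the flap endonuclease, had 184 and 179 CPM in shControl and 75.2 and 72.9 CPM in shNeuroD1 (log2 fold change -1.29, SE 0.0503, edgeR adjusted p 2.5e-20). LIG1, the ligase that seals the fragments, was at 49.8% (-1.01), and DNA2, a nuclease for long flaps, at 52.6% (-0.93). All 3 genes were lower without overlap.

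Of the fork protection genes, CLSPN (claspin), the adaptor between ATR and CHK1, had 62.3 and 57.6 CPM in shControl and 17.7 and 19.4 CPM in shNeuroD1, or 30.9% of control (log2 fold change -1.69, SE 0.0800, edgeR adjusted p 4.1e-18). It was second to CDC6 among the 53. WDHD1, which ties the helicase to polymerase alpha, was at 42.7% (-1.23). TIPIN (-1.03) and TIMELESS (-0.92), which form a complex that steadies the fork, lay close together, with SEs of 0.0935 and 0.0441. A ribosomal protein pseudogene on the same strand shares 21% of the exon bases of TIPIN.

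Chromatin assembly behind the fork was lower as well. CHAF1A, the large subunit of CAF-1, had 135 and 129 CPM in shControl and 50.02 and 47.9 CPM in shNeuroD1 (log2 fold change -1.43, SE 0.0567, edgeR adjusted p 4.0e-20), and CHAF1B was at 45.7% (-1.13). SLBP, which binds the stem-loop of replication-dependent histone transcripts, was at 66.3% (-0.59, edgeR adjusted p 1.2e-09).

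A second list held 26 other genes with roles in DNA replication. Of these, 22 fell, 3 rose and 1 (CHTF8) did not pass at an edgeR adjusted p under 0.05, beside the 28.2% and 26.8% of all genes, with a median log2 fold change of -0.66. 7 of the 22 were past -1. The largest falls were in PCLAF, a PCNA-binding protein (155 ± 15.4 to 35.02 ± 2.76 CPM, SD, n = 2 each, log2 fold change -2.14, edgeR adjusted p 1.0e-22), in PCNA, the clamp itself (-1.39), and in DTL, which directs CDT1 to the ubiquitin ligase CRL4 (-1.38). PCLAF fell more than any of the 53. The genes that rose were POLD4, the small subunit of polymerase delta (1.66 ± 0.0509 to 2.73 ± 0.0483 CPM, SD, n = 2 each, 0.71, edgeR adjusted p 0.04), LRWD1, an ORC-associated protein (0.30, edgeR adjusted p 0.00583), and TOP1, the topoisomerase that relaxes DNA ahead of the fork and in transcribed genes (0.16, edgeR adjusted p 0.00339). Polymerase delta held a gene that rose, a gene that did not pass and 2 that fell.

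The size of the fall depended on what the libraries were scaled to. Of 8 genes often used as references, 5 fell and 0 rose in the same fit. These were GAPDH (-0.45), ACTB (-0.30), HPRT1 (-0.58), SDHA (-0.35) and TBP (-0.31), whereas PPIA (-0.08), YWHAZ (-0.07) and B2M (0.05) did not pass. With the libraries scaled to the summed counts of these 8 genes, an alternative chosen after seeing the data, the median of all genes stood at 0.33 and the median of the 53 replication genes at -0.68. 47 genes then fell, against 11.5% of all genes, and 3 did not pass (ORC2, ORC3 and DBF4). ORC4, ORC5 and POLD2 passed as higher, as did 54.0% of all genes, at 0.29 to 0.38, near the median of all genes under that scaling. 11 rather than 27 were past -1, against 2.89% of all genes. Under library size alone the median of all genes stood at 0.12 and that of the 53 at -0.89, with 50 genes lower, against 20.8% of all genes, and POLD2 higher, as were 34.9% of all genes. 22 of the 53 were then past -1, against 4.18% of all genes. A scaling moves all genes by nearly the same amount, so these fits bear on the size and the calls and not on the distance of the 53 from other genes.

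The authors' FPKM tables gave a second view of the same libraries. They listed transcript starts for 45 of the 53 genes and none for CDC6, GINS3, POLA2, POLD1, POLE2, FEN1, DNA2 and TIPIN. FPKM summed over starts varied more between replicates than CPM, with a median absolute log2 ratio of 0.15 against 0.0538 over 90 replicate pairs of a gene. In limma on log2(FPKM + 1), where fold changes are understated for low genes, 12 of the 45 genes fell and 0 rose at an adjusted p under 0.05, where 2.43% of 10084 genes were lower and 2.41% were higher, and the median was -0.85. 8 of the 12 were past -1, against 2.00% of all genes. With log2(FPKM + 0.1), 7 of the 45 genes fell, all 7 past -1, and 0 rose, where 1.19% of all genes were lower, 1.19% were lower and past -1, and 1.18% were higher. RPA3 shows the spread, with 41.3 and 14.3 FPKM in shControl and 11.2 and 9.901 FPKM in shNeuroD1. Of the genes with a negative log2 fold change in the counts, PRIM1, RFC2 and ORC4 had positive values with log2(FPKM + 1) that did not pass (limma adjusted p 0.57, 0.127 and 0.504). For PRIM1, 3 of its 6 listed starts lay outside the gene. The starts inside PRIM1 summed to 30.9 and 21.7 FPKM in shControl and 22.6 and 12.3 FPKM in shNeuroD1, and the groups overlapped.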

How the data were processed

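RNAseq of poly(A) RNA was compared between 2 shControl and 2 shNeuroD1 libraries, grouped by the sample titles. The authors deposited raw read counts per Ensembl gene and, for each library, FPKM values of transcript starts, ends and splicing events of assembled transcripts. The submitters' processing notes name cutadapt 1.9.1, HISAT2 2.0.1, HTSeq 0.6.1, DESeq2 and the build hg38. Use of strand, the annotation release and the tool behind the FPKM tables are not given in the sources used here. All 4 sample columns of the count table were used.

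Counts were analysed in edgeR 4.0.16 (R 4.3.3) after filterByExpr (minimum count 10) and TMM scaling, with the two-sided quasi-likelihood F test and Benjamini-Hochberg adjustment over all 17537 genes. Genes were called lower or higher when the adjusted p was under 0.05, and those with a log2 fold change beyond 1 were also counted. The SE is the size of the log2 fold change divided by the square root of F. The script was tested on simulated data. Symbols, coordinates and exon lengths came from GENCODE 29 and a table of current symbols, with 58394 of 60612 IDs in GENCODE 29. Alternatives were DESeq2 1.42.0, other scalings and filters, the replicate number as a block, limma 3.58.1 on log2(FPKM + 1) and log2(FPKM + 0.1) (mean FPKM of 1 or more), glmTreat, and leaving out each library. The 2 libraries of a group differed by more than counting noise (chi-square per degree of freedom 2.50 and 1.54) and were counted as separate libraries, which does not show that they came from separate cultures.

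All 53 genes were named, with values in every library for the ORC and MCM2-7 subunits, the largest fall in each other role, and the genes that did not pass. Of the 26 other replication genes, the 3 largest falls and those that rose were named. The genes and lists were chosen with earlier results of these data known. A marker gene of the cell type check is not reported here.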

Additional observations from a re-analysis of the deposited data

How the results depend on the processing

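The direction of the 53-gene median and of all 10 role medians was the same in every alternative run. DESeq2, DESeq2 size factors, both other filters, the replicate block and each fit without 1 library gave 50 genes lower, with 26 to 28 past -1 when a library was left out, and glmTreat called 18 genes past -1 against 27. The role medians moved by more than the replicate spread under library size alone, to -0.90 (licensing), -1.14 (MCM2-7 helicase ring), -1.09 (CDC45 and GINS), -0.59 (origin firing), -0.70 (polymerase), -0.64 (clamp loader), -0.500 (RPA), -0.89 (Okazaki fragment maturation), -1.01 (fork protection), -1.02 (histone supply and chromatin assembly) with -0.89 for the 53 and 1 gene higher, and when scaled to the 8 reference genes (chosen after seeing the data), to -0.69 (licensing), -0.93 (MCM2-7 helicase ring), -0.88 (CDC45 and GINS), -0.37 (origin firing), -0.49 (polymerase), -0.43 (clamp loader), -0.29 (RPA), -0.68 (Okazaki fragment maturation), -0.80 (fork protection), -0.81 (histone supply and chromatin assembly) with -0.68 for the 53, 3 genes higher and 11 past -1. They moved slightly with no filter on low counts, to -1.03 (licensing), -1.27 (MCM2-7 helicase ring), with a mean of at least 1 CPM, to -1.001 (licensing), -1.24 (MCM2-7 helicase ring), and in DESeq2, to -1.03 (licensing), -1.27 (MCM2-7 helicase ring). In limma on log2(FPKM + 1), which tested 45 of the 53 genes, 12 fell and 8 were past -1, against 2.43% and 2.00% of all genes. Of the other replication genes, 3 of the 22 tested fell, against 22 of 26 in the counts. The medians were -0.85 for the 45 genes and -0.46 (licensing), -1.001 (MCM2-7 helicase ring), -1.04 (CDC45 and GINS), -0.64 (origin firing), -0.54 (polymerase), -0.64 (clamp loader), -0.86 (RPA), -0.78 (Okazaki fragment maturation), -0.86 (fork protection), -0.85 (histone supply and chromatin assembly). With log2(FPKM + 0.1) 7 fell, against 1.19% of all genes, and all 7 were past -1. Of the 22 other replication genes tested, 1 fell. The medians were -0.88 for the 45 genes and -0.48 (licensing), -1.03 (MCM2-7 helicase ring), -1.24 (CDC45 and GINS), -0.57 (polymerase), -0.67 (clamp loader), -0.91 (RPA), -0.84 (Okazaki fragment maturation), -0.89 (fork protection), -0.88 (histone supply and chromatin assembly). In both FPKM fits the order of the roles changed, but these medians leave out the 8 genes without FPKM values. The sets of genes thus differ from those of the counts. Licensing lacks CDC6, its largest fall in the counts, and Okazaki fragment maturation rests on LIG1 alone. RPA (-0.86 and -0.91) lay below licensing (-0.46 and -0.48), and CDC45 and GINS (-1.04 and -1.24) lay below the MCM2-7 ring (-1.001 and -1.03). The cause of the gap to the counts was not tested. Shares over all genes were not computed for DESeq2, DESeq2 size factors, the other filters, the replicate block, glmTreat or the fits without 1 library. The size of the adjusted p-values depended strongly on the fit. For CDC6 the edgeR adjusted p was 2.4e-22 in the main fit and 7.4e-07 with no filter on low counts, and the DESeq2 adjusted p was 1.7e-85.

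Without 1 library the role medians ranged over -1.11 to -0.94 (licensing), -1.26 to -1.23 (MCM2-7 helicase ring), -1.25 to -1.21 (CDC45 and GINS), -0.74 to -0.67 (origin firing), -0.84 to -0.73 (polymerase), -0.80 to -0.72 (clamp loader), -0.66 to -0.59 (RPA), -1.05 to -0.97 (Okazaki fragment maturation), -1.17 to -1.09 (fork protection), -1.19 to -1.08 (histone supply and chromatin assembly), and that of the 53 over -1.04 to -0.97; in these fits the lone library of a group is assumed to vary like the other group. The sign changed for ORC4, to 0.081 under library size alone, 0.29 when scaled to the reference genes and 0.16 and 0.23 in the FPKM fits, and in the FPKM fits for PRIM1 (0.30 in both), RFC2 (0.84 and 0.95) and, with 0.1 added, WDHD1 (0.018). Of 673 values of single genes, 598 kept their direction and call, 63 were weaker, 3 stronger and 9 reversed, and all 212 without 1 library kept both.

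The libraries that share a number did not move together around their group means (correlation 0.0158 over 17537 genes) and share only a number. With the replicate number as a block 50 genes were lower, 27 past -1, and the median of the 53 was -1.01. Counts of the 53 genes ranged from 126 to 7300 per library, so depth limits POLA2 and GINS4 most.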

Other observations

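The FPKM tables listed 603 transcript starts, ends and splicing events in the 45 replication genes they hold. None of them reached 1 FPKM in each knockdown library while being absent from the controls. The reverse was seen for 3 events, 2 in POLD2 (6.36 and 7.16 FPKM in shControl, listed in neither knockdown library) and 1 in RFC2 (1.72 and 8.37 FPKM). 2 of the 45 genes, PRIM1 and CHAF1B, had listed starts outside the annotated gene. The ratio of DBF4 to CDC7 CPM, chosen after the values were seen, stood at 0.308 and 0.298 in shControl and 0.388 and 0.364 in shNeuroD1, and that of CDC6 to ORC4 stood at 1.82 and 1.88 in shControl and 0.520 and 0.546 in shNeuroD1.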
